A study of Bos taurus with 39 samples.

Results

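Milk somatic cells of Holstein cows were ranked by the level of 5 interferon-stimulated genes, and the 13 highest cows were compared with the 13 lowest. For each cow the mean log2(RPKM + 1) of ISG15, IFIT1, IFIH1, EIF2AK2 and IFI44 was taken, and the mean log2(RPKM + 1) of all 10652 rows with at least 1 RPKM in at least 17 cows was subtracted. RPKM is the number of reads of a gene scaled by its length and by the mapped reads of the library. The comparison holds 26 of the 39 cows of the series, and the other 13 cows form the middle of the ranking. The cows were thus chosen by the measured levels of these 5 genes, and the 5 genes are described without a test.

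The study set 22 cows labelled LOW RFI against 17 labelled HIGH RFI. The letters are read here as residual feed intake, the feed eaten beyond what production and body weight predict. Each cow gave 1 library of RNA from the cells in her milk, drawn through a cannula, and all cows were Holstein. The labels give no age, parity, stage of lactation, infection status or cell count. They name no treatment, and the ranking splits cows by a measured level and not by an exposure. Names such as HIGH RFI 11 follow the order of the labels.

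Interferons are secreted proteins that cells release when they sense viral nucleic acid or other microbial products. They bind receptors that signal through JAK kinases and STAT proteins to a shared set of interferon-stimulated genes, many of whose products bind viral RNA or block viral replication. Milk holds macrophages, neutrophils and lymphocytes beside shed mammary epithelium, and neutrophils enter it in large numbers during mastitis. Transcripts of the milk proteins make up a large and variable share of the RNA recovered from it.

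The score was 0.206 to 2.47 in the interferon-high cows (median 0.548), -0.800 to -0.296 in the middle cows and -1.69 to -0.805 in the interferon-low cows (median -1.04). The lowest of the high cows, LOW RFI 4 at 0.206, stood 0.502 above the next cow, HIGH RFI 9 at -0.296. The border with the low cows had no such gap, as LOW RFI 14, the last middle cow, was at -0.800 and LOW RFI 1, the first low cow, at -0.805, a difference of 0.00405. HIGH RFI 11 stood apart at the top with 2.47, followed by HIGH RFI 3 at 1.54. The lowest scores belonged to HIGH RFI 4 at -1.69 and LOW RFI 8 at -1.32.

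**Figure D1:**
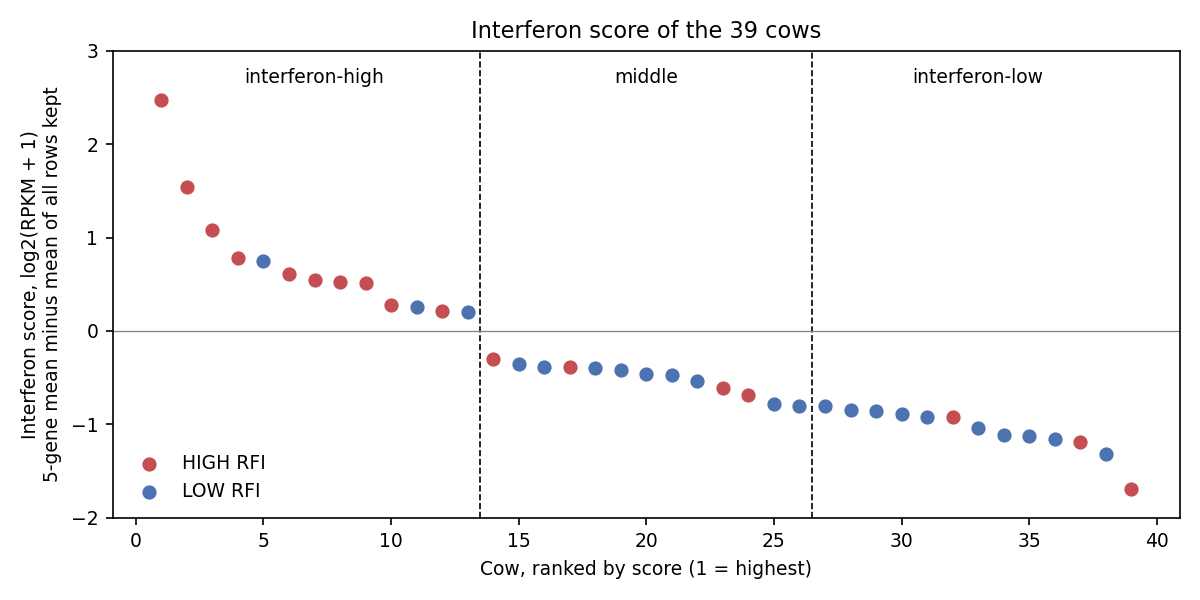
Interferon score of each of the 39 cows (y axis, log2 scale) against its rank (x axis), coloured by RFI label, with dashed lines at the borders of the 3 parts of the ranking. The high cows lie between 0.206 and 2.47 and are separated from the middle by a gap, while the middle and low cows form a continuous series.

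The 5 genes of the score differed in how far they separated the cows. IFIT1, which binds viral RNA that lacks the host cap, lay at 10.4 to 171 RPKM in the high cows (median 25.3) and at 0.192 to 2.51 RPKM in the low cows (median 1.23), with no overlap. ISG15, a ubiquitin-like protein joined to other proteins, lay at 48.4 to 809 RPKM (median 238) against 3.70 to 88.0 RPKM (median 47.2). IFIH1, the sensor of long double-stranded RNA, lay at 3.13 to 24.4 RPKM (median 9.36) against 0.412 to 3.18 RPKM (median 1.59). For both, 12 of the 13 high cows lay above every low cow. EIF2AK2, the kinase that halts translation on double-stranded RNA, ranged over 3.03 to 20.9 RPKM (median 8.49) and 0.289 to 5.56 RPKM (median 1.25), and 10 high cows lay above every low cow. IFI44, an interferon-induced gene, was the least abundant, at 0.713 to 11.7 RPKM (median 3.15) against 0.0121 to 2.71 RPKM (median 0.505), with 9 high cows above every low cow.

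**Figure D2:**
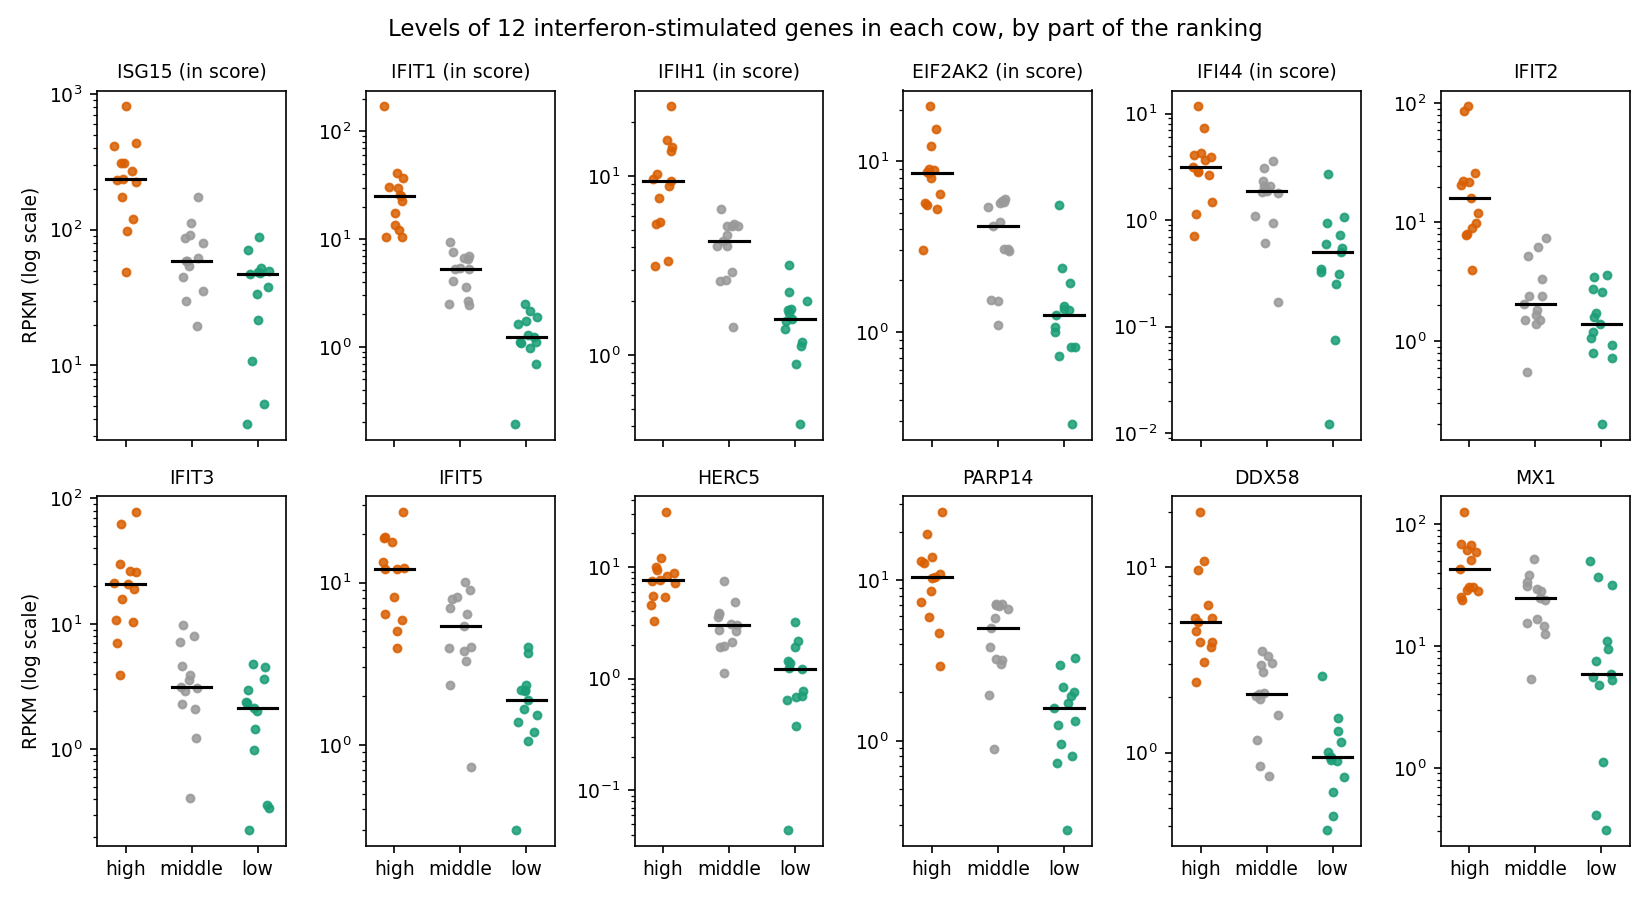
RPKM on a log axis (y) of the 5 genes of the score and 7 further interferon-stimulated genes in the 13 high, 13 middle and 13 low cows (x), where each point is 1 cow and each bar a median. IFIT1, IFIT2 and HERC5 show no overlap between high and low cows, and MX1 shows the widest overlap among the genes plotted outside the score, with 6 of 13 high cows above every low cow.

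The high and low cows also differed in how much of their RNA came from milk protein genes. The 7 milk protein genes made up 0.213% to 26.7% of all RPKM in the high cows (median 6.60%) and 1.09% to 80.1% in the low cows (median 45.5%). The ranges overlapped, and the means differed (two-sided permutation test of group means, p = 0.00042). No high cow and 7 of the 13 low cows were above 40%. Over all 39 cows the score and this share had a Pearson r of -0.48 (permutation p = 0.00255, adjusted over 3 relations 0.00765) and a Spearman rho of -0.53 (p = 0.00061, adjusted 0.00183), and r was -0.44 without the 2 cows whose share lay farthest from the median. Within LOW RFI r was -0.56 (n = 22, permutation p = 0.00553, adjusted 0.0083), rho was -0.54 (p = 0.00957, adjusted 0.0144) and r without the 2 farthest cows was -0.54. Within HIGH RFI r was -0.41 (n = 17, permutation p = 0.109) and rho -0.35 (p = 0.171), which did not pass, and r was -0.13 without the 2 farthest cows.

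Recovered mapped reads lay between 80343864 and 204905052 in the high cows and between 61576736 and 153880796 in the low cows, a difference that did not pass (permutation p = 0.268). Features at 1 RPKM or more numbered 9438 to 11142 in the high cows and 6620 to 10588 in the low cows (permutation p = 0.00146). The share of reads in genes was 80.9% to 88.7% in the high cows (median 86.2%) and 84.0% to 96.5% in the low cows (median 90.5%, permutation p = 0.00082), and its part in the results was not tested. In RPKM, a large share for milk protein leaves less for every other gene. The comparison is therefore also given with the milk protein share as a covariate and without the 7 low cows above 40%, which leaves 13 high against 6 low cows. Both settings were chosen after seeing the data.

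**Figure D3:**
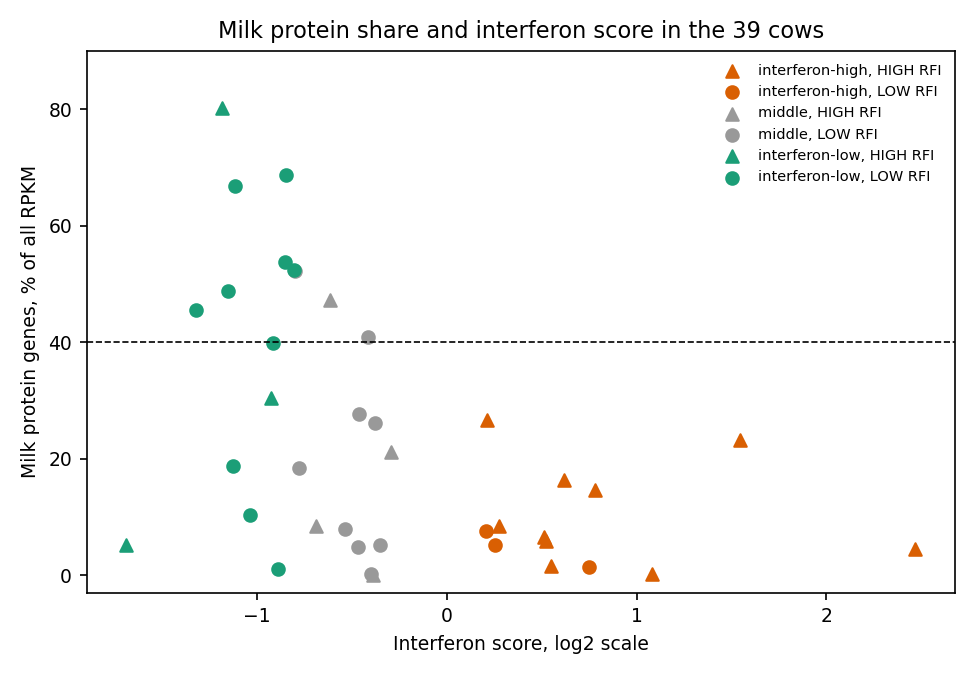
Share of all RPKM held by the 7 milk protein genes (y axis, percent) against the interferon score (x axis, log2 scale) in the 39 cows, coloured by part and shaped by RFI label, with a dashed line at 40%. The 7 low cows above the line have no counterpart among the high cows, and the low cows below it run down to 1.09%.

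Low scores also occurred in cows with little milk protein RNA. HIGH RFI 4, the cow with the lowest score, had 5.29% of its RPKM in milk protein genes and 1.11 RPKM of IFIT1, and LOW RFI 17 had 1.09% and 1.23 RPKM. In these cows CD68, a macrophage lysosomal protein, was at 1443 and 1541 RPKM, against a median of 418 RPKM over the low cows. They differed from each other in other interferon genes. EIF2AK2 and IFI44, both genes of the score, were at 5.56 and 2.71 RPKM in LOW RFI 17, the highest of the low cows. In HIGH RFI 4 they were at 1.34 and 0.349 RPKM. MX1, a GTPase that blocks virus replication, was at 9.49 RPKM in HIGH RFI 4 and 50.0 RPKM in LOW RFI 17, and RSAD2, or viperin, was at 18.4 and 7.86 RPKM.

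A large share of all genes moved with the ranking, and that share sets the background for every count below. Limma on log2(RPKM + 1) placed 5357 of 10631 genes higher in the interferon-high cows (50.4%) and 613 lower (5.77%) at an adjusted p of 0.05, 56.2% in all, and the median difference over all genes was 0.52 on the log2 scale. Because the cows were ranked on 5 genes measured in these same libraries, such a p says how closely a gene follows those 5 genes and not that an exposure changed it, and every gene tested also entered the mean that the score subtracts. With the milk protein share as a covariate, 516 genes were higher and 63 lower (4.85% and 0.593% of those tested) with a median of -0.11. Without the milk-rich low cows, 634 were higher and 10 lower (5.96% and 0.0941%) with a median of 0.031. Quantile normalization, which forces the same distribution on every cow, gave 2131 higher and 2746 lower (20.0% and 25.8%) with a median of -0.0065, and rescaling RPKM without the milk protein genes gave 3335 higher and 1529 lower (31.4% and 14.4%) with a median of 0.22. The split between higher and lower calls thus depends on the scaling.

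Interferon genes outside the score were higher in the interferon-high cows beyond that background. Of the 92 tested genes of 7 interferon lists, 82 were higher (89.1%, against 50.4% of all genes) and 1 was lower, and their median difference was 1.39 against 0.52 over all genes. Their median stayed above that of all genes under the 2 milk settings, at 0.52 against -0.11 and at 0.75 against 0.031. Under these settings 20 (21.7%, against 4.85%) and 32 (34.8%, against 5.96%) were higher. In the comparison without covariates and also under both milk settings, 19 of the 92 genes were higher, against 4.39% of all genes. Quantile normalization gave 63 higher and 3 lower, with a median of 0.83. In bulk RNA, more cells of a type and more RNA per cell cannot be told apart.

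Transcripts of the interferons themselves were at low levels. None of the 5 ligand genes with a row reached the filter of 1 RPKM in 17 cows, and 7 further names on the list have no row. IFNG, or interferon gamma, had reads in all 39 cows. It lay at 0.0457 to 2.40 RPKM in the high cows (median 0.383) and 0.0262 to 0.525 RPKM in the low cows (median 0.152). Its median in the middle cows was 0.376 RPKM, near that of the high cows, and its top value was in HIGH RFI 1, with 354 reads. IFNB3, an interferon beta, had reads in 12 of 13 high and 8 of 13 low cows, with at most 29 reads in a cow, and near-identical copies of the beta genes may share reads. IFNL3, an interferon lambda, had reads in 4 high and 5 low cows, IFNK in 1 low cow and IFNE in none.

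Receptors and signalling proteins of the pathway were higher as a group, 11 of 12, with a median of 1.82. With the milk protein share as a covariate 2 of 12 were higher (median 0.59), and without the milk-rich cows 4 (median 0.81), beside 4.85% and 5.96% of all genes. With neutrophil and epithelium scores as covariates 1 of 12 was higher (median 0.24), beside 12.7% of all genes, so that count was not above the background. IFNGR1, a chain of the interferon gamma receptor, lay at 32.4 to 244 RPKM in the high cows (median 55.6) and 2.13 to 48.5 RPKM in the low cows (median 11.7), and 9 high cows lay above every low cow. Its difference was 2.50 (SE 0.36, adjusted p = 1.09e-05), and it was still 1.34 with the milk protein share as a covariate (adjusted p = 0.0193). IFNAR1 and IFNAR2, the chains of the type I receptor, had medians of 30.5 and 44.9 RPKM in the high and 6.35 and 10.5 RPKM in the low cows. Their differences of 2.02 and 2.16 passed (adjusted p = 3.93e-05 and 0.000279) and came to 0.82 and 0.74 with the covariate (adjusted p = 0.0513 and 0.236). IFNLR1, the chain particular to the lambda receptor, was the exception, at 0.601 to 1.67 RPKM in the high and 0.0269 to 2.52 RPKM in the low cows (0.23, SE 0.17, adjusted p = 0.239).

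Among the kinases, JAK2 separated the cows most closely. It lay at 2.60 to 26.6 RPKM in the high cows (median 5.01) and 0.478 to 2.81 RPKM in the low cows (median 1.27), and 12 high cows lay above every low cow. Its difference of 1.60 (SE 0.23, adjusted p = 1.08e-05) was nearly the same under the 2 milk settings, 1.52 and 1.58 (adjusted p = 0.00681 and 0.0105). JAK1 and TYK2 overlapped more, with differences of 0.53 and 1.90 (adjusted p = 0.0263 and 0.00065) and with 1 and 6 high cows above every low cow, and JAK1 came to -0.043 after quantile normalization. STAT2 and IRF9 belong to the factor that carries the type I signal to the nucleus. They lay at 16.4 to 38.3 and 11.4 to 67.0 RPKM in the high cows and at 2.52 to 32.7 and 1.08 to 26.4 RPKM in the low cows. Their differences were 1.33 and 1.87 (adjusted p = 0.000427 and 0.000179). With the covariate they came to 0.32 and 0.70 and did not pass (adjusted p = 0.324 and 0.173).

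Interferon regulatory factors were 6 higher and 1 lower of 8. IRF7, which amplifies type I interferon, lay at 19.3 to 104 RPKM in the high cows and 4.19 to 43.5 RPKM in the low cows (1.39, SE 0.30, adjusted p = 0.000467). IRF1, induced most strongly by interferon gamma, lay at 18.2 to 245 RPKM against 2.81 to 59.0 RPKM (2.08, SE 0.42, adjusted p = 0.000304). For each, 10 high cows lay above every low cow. With the milk protein share as a covariate 0 of the 8 passed in limma, 1 of them at an unadjusted p under 0.05, and without the milk-rich cows 1 did.

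All 10 tested sensors of RNA and DNA and their adaptors were higher, and 3 further members with a row, TLR3, TLR9 and CGAS, were below the filter. DDX58, which encodes the RNA sensor RIG-I, lay at 2.39 to 19.9 RPKM in the high cows (median 5.06) and 0.383 to 2.59 RPKM in the low cows (median 0.944), and 12 high cows lay above every low cow. Its difference of 1.73 (SE 0.22, adjusted p = 3.71e-06) changed little under the milk settings, at 1.59 and 1.65 (adjusted p = 0.00543 and 0.00977). TBK1, the kinase that passes the signal of these sensors to the regulatory factors, lay at 1.39 to 6.97 RPKM against 0.522 to 1.95 RPKM (1.13, SE 0.19, adjusted p = 5.27e-05) and was also higher under both (1.02 and 0.99). ZNFX1, a helicase that senses viral RNA, and TLR7, the endosomal sensor of single-stranded RNA, differed by 2.00 and 1.89 (adjusted p = 7.69e-05 and 5.1e-05). With the covariate they came to 0.86 and 0.79 (adjusted p = 0.0955 and 0.0682).

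Of the antiviral effectors, 31 of 33 tested were higher, with a median of 1.42, and 8 and 12 were higher under the 2 milk settings. IFIT2, an RNA-binding relative of IFIT1, showed no overlap, at 3.99 to 94.6 RPKM in the high cows (median 16.0) and 0.201 to 3.59 RPKM in the low cows (median 1.38). Its difference was 2.86 (SE 0.36, adjusted p = 3.63e-06), and 2.41 and 2.58 under the milk settings (adjusted p = 0.00562 and 0.0114). IFIT3, its partner in the same complex, lay at 3.92 to 77.8 RPKM against 0.228 to 4.77 RPKM, and IFIT5 at 3.97 to 27.2 RPKM against 0.299 to 4.01 RPKM. Both had 12 high cows above every low cow, and their differences were 2.85 and 2.09 (adjusted p = 3.07e-06 for each). IFITM3, which hinders the fusion of enveloped viruses in endosomes, was the most abundant of the effectors higher under both milk settings, at 84.1 to 1023 RPKM (median 537) against 13.4 to 149 RPKM (median 63.0), a difference of 2.73 (SE 0.40, adjusted p = 1.31e-05).

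The MX and OAS genes overlapped more. MX1 lay at 23.9 to 125 RPKM against 0.310 to 50.0 RPKM and differed by 2.51 (SE 0.46, adjusted p = 0.000134), which came to 1.21 with the milk protein share as a covariate (adjusted p = 0.123). MX2, a related GTPase, lay at 13.8 to 63.6 RPKM against 0.111 to 25.0 RPKM, and its 2.68 (adjusted p = 1.06e-05) came to 1.60 with the covariate (adjusted p = 0.0193). In both genes the highest low cow was LOW RFI 17. OAS1Y and OAS1Z, which make the short adenylate chains that activate RNase L, differed by 2.38 and 2.04 (adjusted p = 0.000327 and 1.32e-05). As members of a family of close copies, they may share reads. APOBEC3Z1, a cytidine deaminase, and PNPT1, a mitochondrial exoribonuclease, differed by 2.64 and 1.33 and were higher under both milk settings. RSAD2 lay at 8.31 to 58.2 RPKM against 0.266 to 24.1 RPKM (1.82, SE 0.38, adjusted p = 0.00042), and 0.70 with the covariate (adjusted p = 0.242).

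The members that did not pass were OASL and IFI27. OASL, an inactive relative of the OAS enzymes, lay at 0.531 to 26.4 RPKM in the high cows and 0.177 to 12.6 RPKM in the low cows (0.80, SE 0.50, adjusted p = 0.168). IFI27, which is strongly interferon-induced in human blood, had nearly equal medians of 3.70 and 3.61 RPKM (0.58, SE 0.37, adjusted p = 0.175). OAS2 was below the filter, at 0.370 to 5.50 RPKM against 0.0603 to 1.71 RPKM, and 10 further names on the list have no row.

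ISG15 is attached to proteins by an activating enzyme, a conjugating enzyme and a ligase, and removed by a protease. Of 11 genes of this route and of the interferon-induced PARP family, 10 were higher, with a median of 1.59, and 5 and 7 were higher under the milk settings, with medians of 0.74 and 0.92. HERC5, the ligase in humans, had the smallest p of any interferon gene and no overlap between the parts, at 3.26 to 30.9 RPKM in the high cows (median 7.63) and 0.0445 to 3.18 RPKM in the low cows (median 1.22). It differed by 2.11 (SE 0.24, adjusted p = 2.92e-06), and by 1.52 and 1.67 under the milk settings (adjusted p = 0.00543 and 0.0077). UBE2L6, the conjugating enzyme, and USP18, the protease, differed by 1.27 and 1.29 (adjusted p = 0.00014 and 0.000347).

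HERC6, the relative of HERC5, behaved otherwise. It lay at 5.38 to 35.9 RPKM in the high cows (median 11.7) and 2.18 to 24.8 RPKM in the low cows (median 8.55), and its 0.50 did not pass (SE 0.32, adjusted p = 0.168). Its value depended on how milk protein was handled. It was 1.45 with the share as a covariate (adjusted p = 0.01) and 1.15 without the milk-rich cows (adjusted p = 0.0321), but 0.089 after rescaling without milk protein genes and -0.12 after quantile normalization, and neither of the latter passed (adjusted p = 0.875 and 0.843). The low cow with most HERC6, at 24.8 RPKM, was LOW RFI 20, in which milk protein genes held 66.8% of RPKM.

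PARP14, an ADP-ribosyltransferase, lay at 2.94 to 26.6 RPKM against 0.279 to 3.29 RPKM, with 12 high cows above every low cow (2.14, SE 0.24, adjusted p = 2.92e-06). PARP9, an inactive relative, and DTX3L, the ubiquitin ligase with which it works, differed by 1.61 and 1.84 (adjusted p = 1.21e-05 and 3.07e-06). All 3 were higher under both milk settings.

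Inhibitors that act back on the pathway were 7 higher of 9. PIAS1, a SUMO ligase that restrains the pathway, showed no overlap, at 8.22 to 56.4 RPKM in the high cows (median 12.2) and 0.865 to 7.91 RPKM in the low cows (median 3.41). Its difference was 1.73 (SE 0.25, adjusted p = 1.09e-05), and it was the list's member that was higher under both milk settings, at 1.03 and 1.22 (adjusted p = 0.0170 and 0.0149). SOCS1 and SOCS3, which block JAK kinases and are induced by cytokines, differed by 1.27 and 2.72 (adjusted p = 0.00238 and 0.000262). SOCS3 had the wider range, 3.71 to 291 RPKM in the high cows and 0.858 to 16.9 RPKM in the low cows, and its top value was in LOW RFI 4. With the covariate they came to 0.087 and 1.57 (adjusted p = 0.837 and 0.128).

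Genes that lean towards interferon gamma were 9 higher of 11 tested, and 4 members with a row were below the filter, among them CXCL9 and GBP4. GBP2 and GBP5, guanylate-binding proteins that attack vacuoles of microbes, lay at 2.71 to 39.9 and 0.932 to 11.3 RPKM in the high cows and at 0.0551 to 8.69 and 0.114 to 2.30 RPKM in the low cows. Their differences of 2.18 and 1.48 (adjusted p = 2.5e-05 and 0.000138) passed under both milk settings, at 1.77 and 1.40 with the covariate (adjusted p = 0.0189 and 0.0247). The chemokines of this list, which draw T cells, did not move alike. CXCL10 lay at 0.586 to 34.6 RPKM against 0.0742 to 4.68 RPKM (1.26, SE 0.35, adjusted p = 0.00411). CXCL11 had a median of 0.697 RPKM in the high and 3.61 RPKM in the low cows (-0.61, SE 0.45, adjusted p = 0.238).

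**Figure D4:**
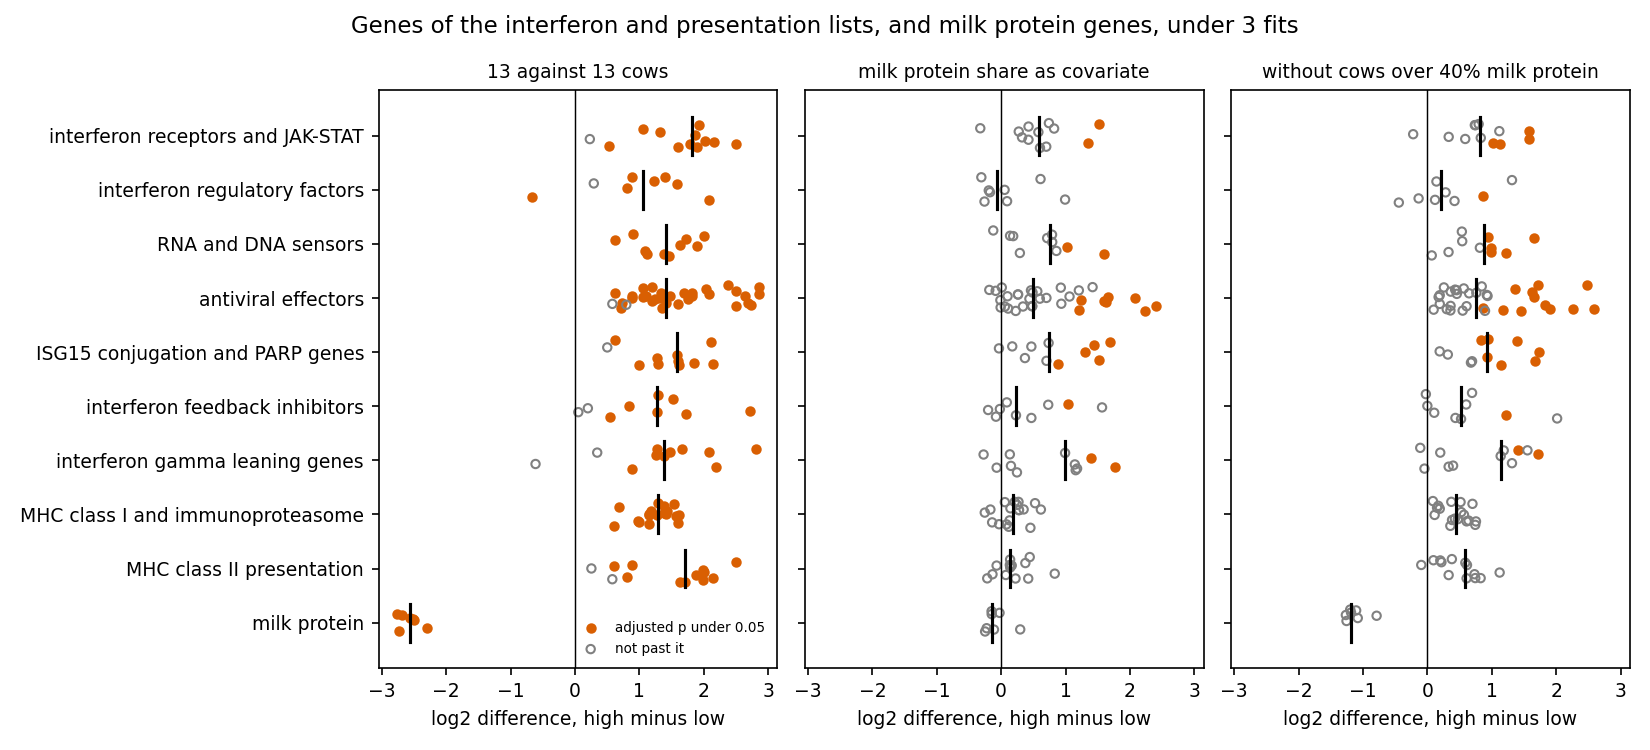
Log2 difference, high minus low (x axis), of each tested gene of 9 interferon and presentation lists and of the milk protein list (rows) in 3 fits, where filled points passed an adjusted p of 0.05 and bars are list medians. Medians of the antigen presentation lists fall from 1.28 and 1.71 to 0.18 and 0.14 with the milk protein share as a covariate, and that of the ISG15 conjugation and PARP list falls from 1.59 to 0.74.

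Antigen presentation genes were higher in the plain comparison. Whether they passed depended on how milk protein was handled and on whether cell type scores were covariates. All 18 tested genes of MHC class I and the immunoproteasome were higher, with a median of 1.28, and 11 of 13 of MHC class II, with a median of 1.71. B2M, the light chain of class I, lay at 1010 to 2964 RPKM in the high cows and 207 to 1712 RPKM in the low cows (1.29, SE 0.31, adjusted p = 0.00121). TAP1, a chain of the peptide transporter, and PSMB8, an immunoproteasome subunit, differed by 1.61 and 1.14 (adjusted p = 0.00204 and 0.00398). CD74, the class II invariant chain, lay at 835 to 2648 RPKM against 21.0 to 2402 RPKM (1.98, SE 0.53, adjusted p = 0.0032), and BOLA-DRA, a class II chain, differed by 2.14 (adjusted p = 0.000969). With the covariate, limma called 0 of the 18 and 0 of the 13, with 0 and 0 at an unadjusted p under 0.05. Without the milk-rich cows it also called 0 and 0, with 4 and 5 at an unadjusted p under 0.05, and the medians were 0.45 and 0.59 against 0.031 over all genes. After rescaling RPKM without the milk protein genes 14 of 18 and 10 of 13 were higher, with medians of 0.87 and 1.42 against 0.22 over all genes. With neutrophil and epithelium scores as covariates limma called 0 and 0, with 1 and 0 at an unadjusted p under 0.05. The medians were 0.056 and 0.15 against -0.0044 over all genes. With macrophage and T cell scores added it also called 0 and 0, with 2 and 2 at an unadjusted p under 0.05. The medians were then -0.051 and -0.0031 against -0.052.

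Markers of phagocytes were higher in the interferon-high cows, and neutrophil markers most. A list's score is the average log2(RPKM + 1) of its tested genes, and 15 lists were compared by two-sided permutation tests with p-values adjusted over them. The neutrophil score was 3.78 to 6.78 in the high cows (median 5.85) and 1.45 to 5.01 in the low cows (median 3.78), a difference of 2.07 (SE 0.40, adjusted permutation p = 0.000225), with 8 of 13 high cows above every low cow. CSF3R, the receptor of the neutrophil growth factor G-CSF, lay at 5.39 to 451 RPKM against 0.668 to 39.7 RPKM, and CXCR1, a receptor of the chemokine CXCL8, at 9.72 to 951 RPKM against 1.37 to 52.1 RPKM. Their differences were 3.70 and 3.59 (adjusted p = 6.36e-05 and 7.82e-05), and both passed under the milk settings, at 2.82 and 2.79 with the covariate (adjusted p = 0.0375 and 0.0400). Of 17 tested members 14 were higher, 1, the lactoferrin gene LTF, was lower (-1.12, SE 0.41, adjusted p = 0.0239), and 3 and 6 were higher under the milk settings.

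Summed over the whole neutrophil list, RPKM ranged from 689 to 4333 in the high and 102 to 1187 in the low cows, and 4 of the 21 members with a row, the granule protein genes ELANE, CAMP, CATHL2 and PGLYRP1, were below the filter. With neutrophil and mammary epithelium scores as covariates, 1349 genes were higher and 3 lower (12.7% and 0.0282% of those tested), and 19 of the 92 interferon genes were higher (20.7%, against 12.7% of all genes). With macrophage and T cell scores added, 30 of the 92 were higher (32.6%, against 17.2%). With the neutrophil and epithelium scores as covariates IFNAR2, TYK2 and SOCS3 took the opposite sign, at -0.22, -0.26 and -0.21, as did IL1B at -0.14, while HERC5 and IFIT2 came to 1.55 (adjusted p = 0.00186) and 1.44 (adjusted p = 0.0103). The part of the cell types in the interferon differences was not tested beyond these fits.

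Macrophage markers overlapped more. Their score was 6.05 to 7.33 in the high cows and 2.26 to 7.64 in the low cows (difference 1.52, SE 0.45, adjusted permutation p = 0.00282), and the highest score of all 26 cows was that of a low cow. CD163, a scavenger receptor, and CSF1R, the receptor of the macrophage growth factor, had medians of 30.7 and 114 RPKM in the high and 4.66 and 30.4 RPKM in the low cows (differences 2.16 and 1.90, adjusted p = 0.000529 and 0.00481), and the highest low cow for both was LOW RFI 17. CTSL, a lysosomal protease, was the member that was lower (-0.55, SE 0.17, adjusted p = 0.00914). With the milk protein share as a covariate limma called 0 of 19 members, 0 of them at an unadjusted p under 0.05. Summed RPKM of the list ranged from 8020 to 17749 in the high and 217 to 27096 in the low cows.

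Dendritic cell markers were 10 higher of 11 (score difference 1.15, SE 0.26, adjusted permutation p = 0.000225), led by BATF3, a factor of cross-presenting cells, at 5.08 to 299 RPKM against 0.530 to 15.4 RPKM (2.76, adjusted p = 0.000316), and FSCN1, an actin-bundling protein of mature cells (1.82, adjusted p = 0.00133). The dendritic cell list has 16 members with a row, and CLEC9A and XCR1 were among those below the filter. Under the 2 milk settings limma called 0 of the 11 tested (medians 0.17 and 0.37), with 1 and 1 at an unadjusted p under 0.05. T cell markers overlapped widely, with a score of 1.59 to 5.09 in the high and 0.716 to 4.68 in the low cows (difference 0.55, SE 0.48), which did not pass (adjusted permutation p = 0.277). IL7R, which other leukocytes also carry, and TRAT1 were the 2 of 21 T cell members that were higher (1.94 and 0.96, adjusted p = 0.000296 and 0.0268). NK and cytotoxic markers differed by 0.81 (SE 0.38, adjusted permutation p = 0.0652), with GNLY and NKG7, proteins of cytotoxic granules, at 1.71 and 1.39 (adjusted p = 0.000132 and 0.0187). Taking the milk protein share as a covariate, they came to 1.30 and -0.44 (adjusted p = 0.0518 and 0.449), so NKG7 took the opposite sign. Of 14 NK and cytotoxic members with a row 10 were tested, and GZMA, KLRD1 and NCR1 were among those below the filter. B and plasma cell markers differed by 0.53 (SE 0.22, adjusted permutation p = 0.0383), with FCER2 and IRF4 at 1.30 and 0.89 (adjusted p = 0.00106 and 0.0115). That score covers 7 of the list's 14 members, and MS4A1, PAX5 and MZB1 were among those below the filter. The difference of the B and plasma cell score came to 0.071 after quantile normalization and did not pass. IRF4 here and IRF8 among the dendritic cell markers are also on the list of interferon regulatory factors, so these scores are not free of interferon genes. Of the erythrocyte list, HBA alone reached the filter, at 1.47 to 17.8 RPKM against 0.212 to 21.1 RPKM (0.91, SE 0.34, adjusted p = 0.0248), and the whole list summed to 2.20 to 18.5 RPKM against 0.313 to 21.7 RPKM.

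Inflammatory cytokines and NF-kB genes were 24 higher of 25, with a score difference of 2.00 (SE 0.42, adjusted permutation p = 0.000225) and 10 of 13 high cows above every low cow. PTX3, a secreted pattern recognition protein, lay at 0.313 to 364 RPKM in the high cows (median 38.9) and 0.108 to 6.51 RPKM in the low cows (median 1.04). IL1B, the interleukin-1 beta gene, lay at 4.54 to 537 RPKM (median 140.3) against 1.09 to 36.5 RPKM (median 9.13). Their differences were 3.54 and 3.29 (adjusted p = 0.000255 and 0.00025), and with the milk protein share as a covariate 2.84 and 2.00 (adjusted p = 0.0609 and 0.115). Of the list, 3 and 2 members were higher under the milk settings.

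**Figure D5:**
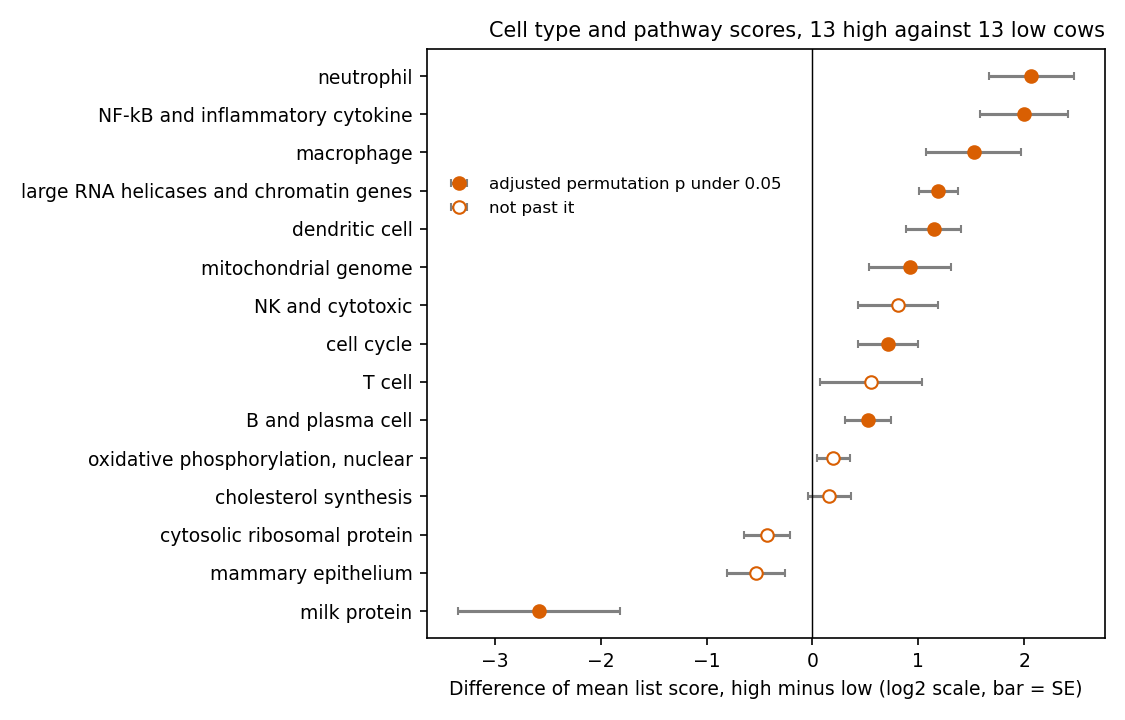
Difference of the mean list score between 13 high and 13 low cows (x axis, log2 scale) for 15 cell type and pathway lists, with SE bars and filled points where the adjusted permutation p was under 0.05. The neutrophil and NF-kB lists lie farthest to the right at 2.07 and 2.00, and milk protein farthest to the left at -2.58. The list of large RNA helicase and chromatin genes was drawn up with earlier results of these data known.

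All 7 milk protein genes were lower in the interferon-high cows. CSN1S1 and CSN1S2, which encode alpha-s caseins, had medians of 4588 and 2320 RPKM in the high and 44380 and 19768 RPKM in the low cows (-2.77 and -2.73, adjusted p = 0.00232 and 0.00295). Markers of mammary epithelium were 6 lower and 0 higher of 18, beside 5.77% of all genes lower and 50.4% higher. Their score difference of -0.53 did not pass (SE 0.27, adjusted permutation p = 0.0763), and it passed after quantile normalization, at -1.06. ELF5, the factor of milk-secreting cells, lay at 1.51 to 159 RPKM in the high and 9.29 to 703 RPKM in the low cows (-2.45, SE 0.61, adjusted p = 0.00173). MUC1, a mucin of the apical surface, differed by -2.15 (SE 0.46, adjusted p = 0.000536).

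Mitochondrially encoded genes were 8 higher of 13, beside 50.4% of all genes (score difference 0.92, SE 0.38, adjusted permutation p = 0.0383). They were led by ND4 and ND5, subunits of respiratory complex I (1.15 and 1.13, adjusted p = 0.00951 and 0.0127). Limma with the milk protein share as a covariate called 0 of the 13, 0 of them at an unadjusted p under 0.05, and their median was -0.18, and without the milk-rich cows it called 0, with 0 at an unadjusted p under 0.05 and a median of 0.025. Cell cycle genes were 10 higher of 20, near the 50.4% of all genes (score difference 0.71, SE 0.29, adjusted permutation p = 0.0383), led by RRM2 and MCM6 of DNA synthesis and replication (1.26 and 1.19, adjusted p = 0.00408 and 0.00188). Neither the mitochondrial nor the cell cycle score passed after quantile normalization, at 0.57 and 0.23. Ribosomal protein genes were 10 lower of 42, beside 5.77% of all genes, with RPS24 and RPL9 at -0.72 and -0.70 (adjusted p = 0.0371 and 0.0299). The ribosomal score difference of -0.43 did not pass (adjusted permutation p = 0.0721), and it passed at -0.63 after quantile normalization. Nuclear genes of oxidative phosphorylation differed by 0.20 and cholesterol synthesis genes by 0.16 (adjusted permutation p = 0.240 and 0.439), and both passed with the opposite sign after quantile normalization, at -0.38 and -0.41 (adjusted permutation p = 0.00549 and 0.0308). In these lists NDUFA4 was lower (-0.71, adjusted p = 0.00634) and NDUFS1 and CYP51A1 were higher (0.70 and 0.72, adjusted p = 0.00684 and 0.0470).

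Ranked by p, the 15 genes leading the higher calls were LYST, HERC5, PARP14, ZNF292, IGSF6, IFIT5, DTX3L, ATP2B1, TASL, ALCAM, RLF, CASP4, IFIT3, FNIP1 and IFIT2. Of these, 6 are members of the interferon lists, and all 15 were higher under both milk settings. LYST, a regulator of lysosome-related granules, lay at 2.47 to 21.4 RPKM in the high cows (median 5.40) and 0.0879 to 2.38 RPKM in the low cows (median 0.728), with no overlap (2.06, SE 0.23, adjusted p = 2.92e-06). CASP4, a caspase that senses bacterial lipopolysaccharide inside cells, lay at 16.5 to 244 RPKM (median 25.9) against 2.07 to 14.0 RPKM (median 5.04), also with no overlap (2.64, SE 0.32, adjusted p = 3.07e-06). IGSF6, an immunoglobulin-like receptor of myeloid cells, had the largest difference of the 15, at 6.42 to 153 RPKM against 0.185 to 7.64 RPKM (3.05, SE 0.36).

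Others of these genes belong to varied processes. TASL, an adaptor that links endosomal Toll-like receptors to IRF5, lay at 4.03 to 18.4 RPKM against 0.158 to 5.99 RPKM. ATP2B1, a calcium pump of the plasma membrane, lay at 14.4 to 68.8 RPKM against 0.351 to 14.9 RPKM, and ALCAM, an adhesion molecule, at 4.45 to 29.2 RPKM against 0.960 to 4.87 RPKM. ZNF292 and RLF, zinc finger proteins, and FNIP1, a partner of folliculin, showed no overlap, with differences of 1.53, 1.87 and 1.82 (adjusted p = 3.07e-06, 3.07e-06 and 3.63e-06). Over all genes tested, 31 (0.292%) were higher in every high cow than in every low cow and 0 were lower, and of the 31, 3 belong to the interferon lists, HERC5, IFIT2 and PIAS1.

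The 15 genes leading the lower calls had larger p-values. COL18A1, a basement membrane collagen, led, at 0.107 to 0.818 RPKM in the high cows and 0.249 to 3.04 RPKM in the low cows (-0.92, SE 0.14, adjusted p = 2.26e-05), and SUOX, the mitochondrial sulfite oxidase, lay at 4.00 to 13.3 RPKM against 12.7 to 19.6 RPKM (-0.86, SE 0.15, adjusted p = 7.32e-05). SCD, the desaturase that makes monounsaturated milk fat, had the largest difference, with medians of 70.3 and 273 RPKM (-2.0, SE 0.38, adjusted p = 0.000164), followed by CIDEA, a lipid droplet protein, at 9.33 and 42.4 RPKM (-1.99, SE 0.37, adjusted p = 0.000141). The rest of the 15 were WIPI1, TM4SF18, RAB26, GMDS, COQ8A, PXMP2, SYNDIG1, STX10, ADSS1, ZBTB47 and ENSBTAG00000009029, at -1.59 to -0.84. Over all genes 6 were lower in the plain comparison and under both milk settings, and COL18A1, SUOX and COQ8A were among them, at -0.58, -0.63 and -0.66 with the milk protein share as a covariate (adjusted p = 0.0270, 0.0231 and 0.0375).

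Genes of long transcripts were higher more often. When the tested genes were split by recovered length into 5 classes of equal size, 31.9% of the shortest class were higher with a median difference of 0.30, and of the longest class 63.1% were higher and the median was 0.65. Under quantile normalization the shares of higher genes were 11.8% and 28.1%. A list of large RNA helicase and chromatin genes, with a median length of 8106 bp against 2447 bp over all genes, was 14 higher of 15 (score difference 1.19, SE 0.19, adjusted permutation p = 0.000225). Of that list 10 and 9 were higher under the milk settings, led by DDX3X, an RNA helicase, at 16.5 to 169 RPKM against 4.17 to 26.6 RPKM (1.88, SE 0.30, adjusted p = 3.65e-05), and CHD1, a chromatin remodeller (1.71, SE 0.24, adjusted p = 9.27e-06). That list was drawn up with earlier results of these data known, so its count and p are not independent evidence. The median length was 3286 bp for the 15 genes leading the higher calls and 2686 bp for the 92 interferon genes. Within each class the interferon genes had a higher median than all genes, from 1.25 against 0.30 in the shortest to 1.08 against 0.65 in the longest, on 10 and 14 genes. The part of transcript length in the differences was not tested.

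A few cows held many of the highest values of interferon genes. HIGH RFI 11 held the highest value among the high cows for 32 of the 92 genes, HIGH RFI 3 for 23 and HIGH RFI 1 for 14. Among the low cows LOW RFI 17 held the highest value for 29 genes and LOW RFI 2 for 28. By its mean rank correlation with the other cows, HIGH RFI 11 (0.792) was one of the 4 cows least like the rest, after LOW RFI 20 (0.703) and HIGH RFI 17 (0.723) and before LOW RFI 18 (0.806). Without these 4 cows 3502 genes were higher and 505 lower (32.9% and 4.75%), and 70 of the 92 interferon genes were higher (76.1%).

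The RFI labels were uneven across the ranking. The high cows were 10 HIGH RFI and 3 LOW RFI, the middle cows 4 and 9, and the low cows 3 and 10. The score averaged 0.163 ± 1.04 (SD, n = 17) in HIGH RFI and -0.612 ± 0.507 (SD, n = 22) in LOW RFI, a difference of 0.77, and the scores of 21 of 22 LOW RFI cows were under the median of the HIGH RFI cows. IFIT1, IFIH1 and EIF2AK2 were already known to be lower in LOW RFI cows when the score was chosen. These counts and levels are therefore given here without a test and are not independent evidence on the labels. With the RFI label as a covariate 81 of the 92 interferon genes were higher (88.0%, against 42.9% of all genes). Among HIGH RFI cows alone, 10 against 3, 47 were higher (51.1%, against 16.6%), and among LOW RFI cows alone, 3 against 10, 19 (20.7%, against 2.68%). The interferon genes' medians were 1.60 and 1.39. No gene had an interaction of ranking and label that passed in limma, with 221 at an unadjusted p under 0.05, and 0 and 250 after quantile normalization.

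Month tags in the column names were uneven as well, and the labels do not say what the tags date. The high cows include 3 tagged February 2020 and 2 tagged May 2020, months with no low cow, while 2 low cows were tagged December 2019, 1 October 2019 and 1 March 2020, months with no high cow. A mark after the number in the column name, whose meaning is not given, was on 1 high and 5 low cows. With month as a covariate 3083 genes were higher (29.0%) and 185 lower (1.74%), and 65 of the 92 interferon genes were higher (70.7%), with a median of 1.33. The cows of the months named above, which hold only high or only low cows, add nothing to the difference estimated there. IFIT2, IFIT3, HERC5 and PARP14 differed by 2.71, 2.58, 2.00 and 2.07 in that fit.

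The 13 middle cows, which the comparison did not use, were few and spanned a narrow range of the score, and limma found no gene with a slope on the score that passed there, with 1046 at an unadjusted p under 0.05 (0 and 1223 after quantile normalization). Slopes had the sign of the high-against-low difference for 84.4% of all genes and for 73 of the 92 interferon genes (79.3%), a smaller share. They had it for all 15 genes leading the higher calls, against 93.5% of all genes called higher. The middle cows' median level lay between the high and low medians for 83 of the 92 interferon genes (90.2%). It did so for 88.9% of the genes called higher and for 65.8% of all genes. IFIT2 and IFIT3 stood nearer to the low cows, with middle medians of 2.07 and 3.15 RPKM beside 1.38 and 2.13 RPKM in the low and 16.0 and 20.7 RPKM in the high cows.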

How the data were processed

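RNA of milk somatic cells from 39 Holstein cows was sequenced after TruSeq library preparation, per the labels' protocols. The authors deposited 1 table of RPKM values, 21661 features by 39 cows, per the file headers. The submitters' processing notes name the build ARS-UCD1.2. Which aligner, counter and annotation were used is not given in the sources used here. Rows sharing a name (135) were summed to 21590 genes, and near-identical copies, overlapping or antisense genes may share reads.

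Reads were recovered from the steps of the RPKM values. Whole reads (to within 0.02 reads) came out for 19044 of the 19045 features exceeding 0.01 RPKM in a cow, and totals were 41637742 to 204905052 mapped reads (median 89545831). Where a feature has reads in few cows, some length always gives whole reads. These reads served lengths, depth and the limma-voom alternative only.

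Genes with at least 1 RPKM in at least 17 of the 39 cows were tested (10631 without the 5 score genes) with limma 3.58.1 in R 4.3.3 on log2(RPKM + 1), with trend and robust settings, two-sided, Benjamini-Hochberg adjusted over all of them. Differences are interferon-high minus interferon-low on that scale, which understates low genes. Scores and library measures were compared by permutation of group means (100000 resamples, scipy 1.17.1). Scripts were tested on simulated data.

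The members, lists and alternatives were chosen with earlier results of these data known. Genes are named by a rule: the 15 smallest p in each direction (at most 2 Ensembl identifiers), members of the interferon and presentation lists, and the 2 largest passing differences of every other list. Some genes the rule names are not reported here. CD68, LTF and CTSL were named after their values were seen. Cows are the replicates, and each gave 1 library. No coordinates or sequences are given, as no genome of that build was used.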

Additional observations from a re-analysis of the deposited data

How the results depend on the processing

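Of the named genes' values under the alternatives, 4991 kept their direction and side of the threshold, 563 kept the direction and no longer passed, 10 newly passed and 71 changed direction. Genes passing numbered 5970, and 5199 to 6724 when 1 cow was left out. They numbered 3894 at an adjusted p of 0.01, 3663 of the 6662 genes at 5 RPKM in 17 cows (55.0%, against 56.2%), 3491 with 10 cows against 10, 288 among LOW RFI and 1822 among HIGH RFI cows. Covariates gave 3268 (month), 579 (milk protein share), 1352 (neutrophil and epithelium scores) and 2062 (4 cell type scores), and 644 passed without cows over 40% milk protein. With quantile normalization these were 1914 (month), 1184 (milk protein share) and 1786 (neutrophil and epithelium scores). The milk settings, the quantile settings with covariates, the setting without 4 cows, and the scores from rescaled values or with a pseudocount of 0.1 were chosen after seeing the data. The counts of RFI labels had a Fisher's exact p of 0.0169 with 13 cows against 13, 0.0198 with 10 against 10 and 0.119 with 8 against 8. These p-values are given only to show how they changed with the number of cows. They are no test of the labels, because the score was chosen with 3 of its genes known to differ between the labels. The score difference between labels was 0.630 to 0.890 with 1 cow left out. No paired analysis was possible because the labels carry no replicate numbers that pair cows across the groups.

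List scores of B cells, epithelium, ribosomal proteins, the mitochondrial genome, oxidative phosphorylation, cholesterol synthesis and the cell cycle changed call or direction with the scaling. In that order they were 0.071, -1.06, -0.63, 0.57, -0.38, -0.41 and 0.23 after quantile normalization, and 0.33, -0.92, -0.86, 0.50, -0.22, -0.24 and 0.47 after rescaling without milk protein genes. With 10 cows against 10, B cells were at 0.53, the mitochondrial genome at 0.76, cholesterol synthesis at -0.066 and the cell cycle at 0.58.

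Differences that changed direction with 4 cell type scores were IFNAR2 -0.23, IFNLR1 -0.11, TYK2 -0.27, IRF1 -0.0047, SOCS1 -0.055, SOCS3 -0.19, CXCL11 0.43, B2M -0.056, TAP1 -0.26, CD74 -0.14, BOLA-DRA -0.050, CSF1R -0.37, CTSL 0.065, BATF3 -0.075, FSCN1 -0.20, NKG7 -0.31, FCER2 -0.026, IRF4 -0.30 and IL1B -0.089. With neutrophil and epithelium scores they were IFNAR2 -0.22, IFNLR1 -0.056, TYK2 -0.26, SOCS3 -0.21, CXCL11 0.51, TAP1 -0.12, CD74 -0.024, CSF1R -0.30, CTSL 0.047, BATF3 -0.16, FSCN1 -0.15, NKG7 -0.18, FCER2 -0.021, IRF4 -0.20 and IL1B -0.14. With quantile normalization as well they were IFNAR2 -0.17, IFNLR1 -0.33, TYK2 -0.20, SOCS1 -0.016, SOCS3 -0.28, CXCL11 0.14, CSF1R -0.049, BATF3 -0.24, FCER2 -0.29, IRF4 -0.39, PTX3 -0.029 and IL1B -0.27. With the milk protein share they were IFNLR1 -0.32, IFI27 -0.013, CXCL11 0.25, CSF1R -0.015, CTSL 0.084, NKG7 -0.44, IRF4 -0.17, ND5 -0.095 and CYP51A1 -0.036. With quantile normalization and the share they were IFNLR1 -0.45, IFI27 -0.053, CXCL11 0.16, CSF1R -0.015, CTSL 0.014, NKG7 -0.40, IRF4 -0.24, CSN1S1 0.18 and ND5 -0.099. Quantile normalization alone gave IFNLR1 -0.13, JAK1 -0.043 and HERC6 -0.12, and with month IFNLR1 -0.21, JAK1 -0.029 and HERC6 -0.056. Without cows over 40% milk protein IFNLR1 was at -0.22. The cause of these changes was not tested. CSF1R and CTSL are themselves members of the macrophage score, which is among the 4 cell type scores. CSN1S1 is likewise among the genes that make up the milk protein share. A fit on a covariate that contains the gene cannot decide whether that gene differed beyond the covariate. No conclusion is drawn from the sign of CSF1R and CTSL with 4 cell type scores, or of CSN1S1 with the share.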
